A study of Mus musculus with 8 samples.

Results

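The genes described here carry, take up, store and export iron, or sense how much of it a cell holds. They were listed by name, with earlier results of these data known: Trf, Fth1, Ftl1, Tfrc, Slc11a2, Slc40a1, Ireb2, Aco1, Timd2 and Heph. Of these 10 genes, 9 were analysed, among 18833 genes of the expression matrix, and Timd2 was not analysed here. Of the 9, 7 had a UMI, a counted RNA molecule, in at least 5% of cells and were tested, while Slc40a1 and Heph were under that limit and are given as counts.

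Transferrin, made from Trf, carries ferric iron, and a cell takes it in through the transferrin receptor, made from Tfrc, before the divalent metal transporter made from Slc11a2 moves the freed iron into the cytosol. Ferritin, a shell of heavy chains from Fth1 and light chains from Ftl1, stores iron, and ferroportin, made from Slc40a1, lets it out together with the ferroxidase hephaestin, made from Heph. Oligodendrocytes stain more strongly for iron than other cells of the brain, they make transferrin themselves, and enzymes that build myelin lipids use iron.

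The data are single-cell RNA counts from mature oligodendrocytes of 4 female mice on a mixed CBA:C57Bl6J background. KO mice (Fire Δ/Δ) lack, on both alleles, the Fire super-enhancer inside an intron of Csf1r and lack microglia, and WT mice (Fire +/+) came from crossings of animals that carry 1 deleted allele. Mouse 1 (WT) and mouse 3 (KO) were 1 month and 18 days old, and mouse 4 (WT) and mouse 6 (KO) were 1 month and 16 days old. Hippocampus and cortex of each mouse gave 1 library each, so there were 8 libraries, 4 per genotype, and 2 mice per genotype, where the cortex libraries came from what was left of the left hemisphere after the hippocampus was taken.

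WT hippocampus held 2373 cells in mouse 1 and 1047 in mouse 4, and WT cortex held 1342 cells in mouse 1 and 1123 in mouse 4. KO hippocampus held 2784 cells in mouse 3 and 1934 in mouse 6, and KO cortex held 1074 cells in mouse 3 and 904 in mouse 6. Total UMIs per library ran from 12015360 in KO cortex 6 to 27847948 in KO hippocampus 3, and the median per cell ran from 9377 in WT hippocampus 1 to 13725.5 in KO cortex 3. The batches, as the metadata number them, each held 1 WT and 1 KO library of the same tissue and age, with batch 3 (hippocampus) and batch 4 (cortex) from mice 1 and 3, and batch 5 (hippocampus) and batch 6 (cortex) from mice 4 and 6. Mouse pair, age and batch therefore cannot be told apart. Batch 6 had the highest share of mitochondrial UMIs, 6.24% in WT cortex 4 and 6.28% in KO cortex 6, against 4.65% to 5.42% in the other libraries. Among the 12581 cells, 21 cell barcodes were found in more than 1 library.

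The cells had been sorted by their expression into the clusters Oligo1 to Oligo4. Oligo1 held 859 cells in KO hippocampus 3, 448 in KO hippocampus 6, 147 in KO cortex 3 and 98 in KO cortex 6, against 6 cells in WT hippocampus 4 and 0 in the other WT libraries, so a level in Oligo1 could be given for KO mice only. Oligo4 was thin in WT cortex 1, with 38 cells, and in KO cortex 3, with 47 cells.

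The labels were checked first. Csf1r had a UMI in 126 cells of WT hippocampus 1 (5.31%), 61 cells of WT hippocampus 4 (5.83%), 78 cells of WT cortex 1 (5.81%) and 114 cells of WT cortex 4 (10.2%). In KO mice it had a UMI in 2 cells of hippocampus 3 (0.0718%), 3 cells of hippocampus 6 (0.155%), 1 cell of cortex 3 (0.0931%) and 0 of 904 cells of cortex 6, which allows a share of up to 0.332%. Every WT library was above every KO library. Csf1r is the targeted gene and also a microglial marker, and the part of microglial RNA in the KO against WT comparisons was not tested. The mature oligodendrocyte markers Mog, Mag and Mbp had a UMI in 100% of cells of every library.

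RNA of other cell types was low but not even. The 5 erythrocyte markers, led by Hbb-bs, were high in the hippocampus of mice 1 and 3, at 9.95 and 8.79 UMIs per 10000, and between 0.318 and 2.33 in the other libraries. The 4 choroid plexus markers, led by Ttr, reached 0.786 UMIs per 10000 in KO hippocampus 3 and at most 0.102 elsewhere. Astrocyte markers, led by Slc1a2, lay between 1.78 and 2.72, newly formed oligodendrocyte markers, led by Bcas1, between 4.66 and 5.58, and the lists for neurons, endothelial cells and oligodendrocyte progenitors reached at most 0.603, 0.312 and 0.16 UMIs per 10000 over all cells of a library. The part of these RNAs in the results was not tested.

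Several of the listed genes are linked by a short RNA hairpin, the iron-responsive element. When iron is scarce, the iron regulatory proteins, IRP1 from Aco1 and IRP2 from Ireb2, bind it, which blocks translation when the hairpin lies in a 5′ UTR and slows decay of the mRNA when it lies in a 3′ UTR. They are shown because the hairpins of Tfrc act on the mRNA level, which was measured here, while those of the ferritin genes act on translation, which was not. UTRs were searched, on the transcribed strand, for the loop CAGTG and 1 free base, closed by 5 base pairs and preceded by an unpaired C. Such a match was found in the 5′ UTR of 31 of 21877 coding genes (0.142%) and in the 3′ UTR of 129 (0.59%), and of 69 iron genes searched 4 had one, which were Tfrc, Fth1, Ftl1 and Slc40a1. A match is a description of the letters and not a measured site. The search allowed no other loop and no bulge or mismatch in the 5 pairs. A gene without a match, such as Slc11a2, can therefore still hold an element, and a gene with matches can hold more. The 29 bases around each match are given in build GRCm38, 5′ to 3′ on the gene's strand, with the loop and its free base in capitals. For Tfrc, 4 matches lay in the 3′ UTR of 1 of 3 coding transcripts on the plus strand, at chr16:32631219-32631247, chr16:32631598-32631626, chr16:32631663-32631691 and chr16:32631710-32631738. The Fth1 match was at chr19:9982732-9982760 on the plus strand (4 of 5 coding transcripts), the Ftl1 match at chr7:45459779-45459807 on the minus strand (1 of 2) and the Slc40a1 match at chr1:45925465-45925493 on the minus strand (1 of 4).
Tfrc match 1: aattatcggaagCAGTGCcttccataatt
Tfrc match 2: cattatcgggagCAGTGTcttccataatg
Tfrc match 3: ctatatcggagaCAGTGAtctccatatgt
Tfrc match 4: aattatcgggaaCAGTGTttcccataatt
Fth1: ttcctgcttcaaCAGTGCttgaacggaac
Ftl1: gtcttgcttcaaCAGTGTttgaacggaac
Slc40a1: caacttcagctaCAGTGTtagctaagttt

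Trf, the carrier, had a UMI in 100% of cells of every library. Levels are given as the mean over cells of log2(normalised UMI + 1), the scale of the matrix. Over all cells Trf was at 5.47 in WT hippocampus 1, 4.98 in WT hippocampus 4, 5.51 in WT cortex 1 and 4.92 in WT cortex 4, and at 5.84 in KO hippocampus 3, 5.20 in KO hippocampus 6, 5.78 in KO cortex 3 and 5.25 in KO cortex 6. Mice 1 and 3 were high and mice 4 and 6 low within each genotype, so the genotypes overlapped, with the low KO mouse under the high WT mouse. As raw shares this was 58.3, 41.3, 60.5 and 39.5 UMIs per 10000 in the WT libraries and 80.8, 52.6, 73.6 and 52.8 in the KO libraries, in the same order.

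By cluster, Trf stood in the same order in every library. In KO mice the mean over mice was 6.14 ± 0.32 in Oligo1, 5.85 ± 0.38 in Oligo2, 5.23 ± 0.40 in Oligo3 and 5.08 ± 0.37 in Oligo4 (SD, n = 2), and in WT mice it was 5.73 ± 0.38 in Oligo2, 5.14 ± 0.37 in Oligo3 and 4.64 ± 0.25 in Oligo4 (SD, n = 2). In KO mice Oligo1 and Oligo2, and Oligo3 and Oligo4, differed by less than the spread between mice, and the other neighbours by more. Within libraries the steps all had 1 sign: Oligo1 was above Oligo2 by 0.24 to 0.35 in 4 of 4 libraries, Oligo2 above Oligo3 by 0.53 to 0.68 in 8 of 8, and Oligo3 above Oligo4 by 0.07 to 0.75 in 8 of 8.

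**Figure D1:**
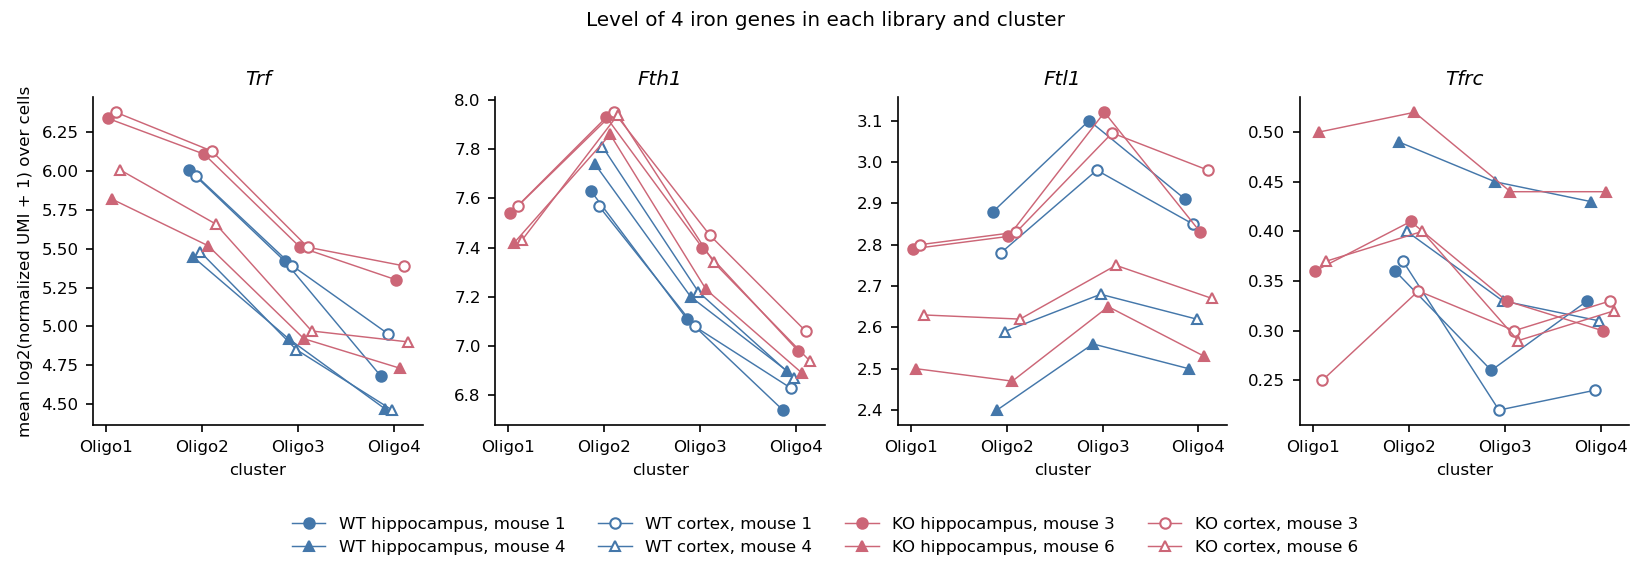
Mean log2(normalised UMI + 1) over cells (vertical axis) of Trf, Fth1, Ftl1 and Tfrc in each cluster (horizontal axis), 1 line per library, with WT in blue, KO in red, mice 1 and 3 as circles, mice 4 and 6 as triangles, hippocampus filled and cortex open. Trf was highest in Oligo1 (5.82 to 6.38), Fth1 in Oligo2 (7.57 to 7.95) and Ftl1 in Oligo3 (2.56 to 3.12), and for Ftl1 the circles lay above the triangles in every cluster.

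Steap3 encodes the reductase that turns transferrin-borne ferric iron into ferrous iron inside the endosome. It was under the 5% limit and was chosen for mention after its values were seen. A Steap3 UMI was found in 9.08% of Oligo1 cells in KO hippocampus 3 (exact 95% interval 7.24% to 11.2%), 8.48% in KO hippocampus 6 (6.07% to 11.5%), 7.48% in KO cortex 3 (3.79% to 13%) and 5.1% in KO cortex 6 (1.68% to 11.5%). In the other cells of the same libraries the shares were 0.571%, 0.673%, 0.216% and 0.496%, and in the WT libraries they ran from 0.211% to 0.356%. Oligo1 was above the other cells in 4 of 4 libraries, and the difference was not tested over mice. The intervals treat cells as separate units and are no test of the difference, as the clusters were made from these same expression values. After thinning every cell to 5000 UMIs the expected Oligo1 shares were 5.1%, 4.46%, 2.81% and 2.03%.

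Tfrc, the transferrin receptor, was sparse. Its mean was 0.28, 0.46, 0.26 and 0.34 in WT hippocampus 1, WT hippocampus 4, WT cortex 1 and WT cortex 4, and 0.35, 0.47, 0.31 and 0.33 in KO hippocampus 3, KO hippocampus 6, KO cortex 3 and KO cortex 6. The hippocampus of mice 4 and 6 was highest and the genotypes overlapped. The share of cells with a Tfrc UMI ran from 27.3% in WT hippocampus 1 to 49.4% in WT hippocampus 4, and from 14.2% in WT cortex 1 to 26.3% in KO hippocampus 6 after thinning to 5000 UMIs. No cell type that should lack these genes was analysed here, so the share that free RNA gives is unknown for every share of cells in this account. Within libraries Tfrc was higher in Oligo2 than in Oligo3 by 0.04 to 0.14 in 8 of 8 libraries and than in Oligo4 by 0.02 to 0.13 in 8 of 8, and it was lower in Oligo1 than in Oligo2 in 4 of 4, by differences of -0.09 to -0.02. Between KO mice the neighbouring levels differed by less than the larger SD, with means of 0.42 ± 0.06 in Oligo2, 0.37 ± 0.09 in Oligo1, 0.35 ± 0.05 in Oligo4 and 0.34 ± 0.04 in Oligo3 (SD, n = 2). WT means were 0.40 ± 0.06 in Oligo2, 0.33 ± 0.06 in Oligo4 and 0.31 ± 0.10 in Oligo3 (SD, n = 2), so Oligo2 and Oligo4 differed by slightly more than the SD.

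Slc11a2, the transporter that empties the endosome, had means of 0.09 to 0.14 over the 8 libraries and a UMI in 10.3% to 18.9% of cells. It was highest in mouse 4 and lowest in KO hippocampus 3, with overlapping genotypes. At this depth a difference of the size seen between libraries rests on few molecules, from 167 UMIs in KO cortex 6 to 306 in each KO hippocampus library.

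Fth1, the heavy chain with the ferroxidase centre, was also found in 100% of cells of every library. Its mean was 7.17, 7.27, 7.18 and 7.30 in WT hippocampus 1, WT hippocampus 4, WT cortex 1 and WT cortex 4, and 7.48, 7.33, 7.58 and 7.47 in KO hippocampus 3, KO hippocampus 6, KO cortex 3 and KO cortex 6. Every KO library was above every WT library, though KO hippocampus 6 exceeded WT cortex 4 by little. Ferritin genes have near-identical pseudogene copies that can take some of the UMIs, so their levels are uncertain by an amount not measured here: the matrix holds 3072068 UMIs for Fth1, 118358 for Ftl1 and 2178 for Ftl1-ps1, a ferritin-like gene that the annotation lists as protein coding.

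The clusters stood in another order for Fth1 than for Trf. In KO mice Fth1 was at 7.92 ± 0.03 in Oligo2, 7.49 ± 0.09 in Oligo1, 7.35 ± 0.10 in Oligo3 and 6.97 ± 0.07 in Oligo4 (SD, n = 2), and in WT mice at 7.69 ± 0.12 in Oligo2, 7.15 ± 0.08 in Oligo3 and 6.84 ± 0.07 in Oligo4 (SD, n = 2). Each step was larger than the spread between mice. Within libraries, Oligo1 differed from Oligo2 by -0.51 to -0.38 and from Oligo3 by 0.09 to 0.19 in 4 of 4, Oligo2 was above Oligo3 by 0.49 to 0.63 in 8 of 8 and Oligo3 above Oligo4 by 0.24 to 0.42 in 8 of 8. The cells of Oligo1 thus lay between those of Oligo2 and Oligo3 in Fth1 and above both in Trf.

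Ftl1, the light chain that helps the shell fill with mineral, had a UMI in 99.8% to 100% of cells. Its mean was 3.05, 2.52, 2.93 and 2.66 in WT hippocampus 1, WT hippocampus 4, WT cortex 1 and WT cortex 4, and 2.94, 2.57, 2.97 and 2.69 in KO hippocampus 3, KO hippocampus 6, KO cortex 3 and KO cortex 6. The libraries of mice 1 and 3 were all above those of mice 4 and 6, and the genotypes overlapped. Means over KO mice were 2.90 ± 0.28 in Oligo3, 2.75 ± 0.22 in Oligo4, 2.68 ± 0.20 in Oligo2 and 2.68 ± 0.16 in Oligo1 (SD, n = 2), all closer than their spread. Within libraries, however, Oligo2 was below Oligo3 in 8 of 8, with differences of -0.30 to -0.08, and Oligo1 below Oligo3 in 4 of 4, with differences of -0.33 to -0.11. The light chain was thus lowest, within a library, in the clusters where the heavy chain was high.

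Slc40a1, the exporter, gave 66 UMIs in all, with a UMI in 0.111% of cells in KO cortex 6 to 0.82% in WT cortex 1. Heph, the ferroxidase that works with it, gave 20 UMIs, with a UMI in at most 0.356% of cells, in WT cortex 4. It was found in 0 of 2373 cells in WT hippocampus 1. This allows a share of up to 0.126% when a count of 0 is taken to allow 3 cells. No difference between genotypes or clusters was tested in either gene.

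Ireb2 and Aco1 encode the proteins that bind the hairpins printed above, and Aco1 is also the cytosolic aconitase when it holds an iron-sulfur cluster. Ireb2 had means of 0.22 to 0.30 and a UMI in 23.6% to 38.1% of cells, high in mice 4 and 6 and with overlapping genotypes. Aco1 was at 0.14, 0.17, 0.14 and 0.14 in WT hippocampus 1, WT hippocampus 4, WT cortex 1 and WT cortex 4, and at 0.17, 0.19, 0.16 and 0.17 in KO hippocampus 3, KO hippocampus 6, KO cortex 3 and KO cortex 6. KO was above WT in each batch, but WT hippocampus 4 reached the KO range. Aco1 in Oligo1 cells was above Oligo2 in 4 of 4 libraries, by 0.02 to 0.06, and above Oligo3 and Oligo4 in 3 of 4 each, with differences of -0.01 to 0.08 and -0.08 to 0.04.

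How the Oligo1 cells differ from the other oligodendrocytes of the same KO animals was the first comparison. Trf was higher in Oligo1 by 0.72 in KO hippocampus 3, 0.80 in KO hippocampus 6, 0.69 in KO cortex 3 and 0.85 in KO cortex 6 (log2), and 91.4% (exact 95% interval 89.3% to 93.2%), 92.6% (89.8% to 94.9%), 89.1% (82.9% to 93.6%) and 95.9% (89.9% to 98.9%) of Oligo1 cells were above the median of the other cells. For Ftl1 the differences were -0.22, -0.09, -0.19 and -0.07 in the same order, below 0 in 4 of 4. For Fth1 they were 0.08, 0.11, -0.01 and -0.04, and for Tfrc 0.02, 0.04, -0.06 and 0.04, with signs that differed between libraries. The clusters were made from these same expression values, so the fits below describe the cluster and are no independent test.

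With the mouse as the unit and no block, limma called 2 of 9259 genes at an adjusted p under 0.05 (0.0216%), 0 of the 7 tested iron handling genes among them, while 855 genes had an unadjusted p under 0.05, edgeR called 119 and DESeq2 277, with Trf among the latter. Trf stood among the 9 of 9259 genes with the largest absolute difference (0.0972%), and Ftl1 among 360 (3.89%). On this log2 scale the added 1 draws the differences of sparse genes toward 0, so such ranks favour abundant genes, Trf and Fth1 among them. In the fits with the mouse as the unit, cells of both tissues were pooled. In mouse 3, 859 hippocampus and 147 cortex cells were in Oligo1, against 1925 and 927 other cells. In mouse 6 these were 448 and 98, against 1486 and 806. Hippocampus thus made up more of Oligo1 than of the other cells, and its part in the differences was not tested. Oligo1 and other cells of 1 mouse moved together, and with the mouse as a block limma called 1192 genes (12.9%), and 2 of the 7 were among them. These were Trf, higher by 0.75 ± 0.02 (SE, n = 2 mice, adjusted p = 0.00166 in limma, higher in 4 of 4 libraries), and Ftl1, lower, with a difference of -0.16 ± 0.03 (SE, n = 2 mice, adjusted p = 0.045 in limma, lower in 4 of 4 libraries). With each library as a block limma called 1312 of 9321 genes (14.1%), among them Trf, with an adjusted p of 9.61e-05 for a difference of 0.77 seen in 4 of 4 libraries, and Ftl1, with 0.0217 for -0.14 in 4 of 4. That fit counted the 4 libraries of 2 mice as separate units. Both tissues of a mouse are not independent, so its p-values can be too small. Over all alternatives the adjusted p of Trf ran from 9.61e-05 to 0.79 and that of Ftl1 from 0.0217 to 1, in fits by limma, edgeR and DESeq2. Fth1 was at 0.05 ± 0.01 (SE, adjusted p = 0.055 in limma with the mouse as a block). It was higher in 2 of 4 libraries, both of hippocampus. With each library as a block Fth1 was at 0.03 ± 0.03 (SE, adjusted p = 0.502 in limma).

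In KO hippocampus 3 the choroid plexus markers summed to 2.1 UMIs per 10000 in Oligo1 and 0.171 in the other clusters, led by Ttr. Trf is also made by choroid plexus, and its difference was 0.69 to 0.85 in the other KO libraries, where the list summed to at most 0.0304 over all cells, and 0.72 in this one. For Ftl1, erythrocyte markers moved with the difference in mouse 3, with 3.49 UMIs per 10000 in Oligo1 against 11.3 in the other cells of hippocampus and 0.464 against 2.43 in cortex, where Ftl1 differed by -0.22 and -0.19. In mouse 6 they were at 2.8 against 2.19 in hippocampus and 0.772 against 0.83 in cortex, where Ftl1 differed by -0.09 and -0.07. Astrocyte markers were lower in Oligo1 in 4 of 4 libraries, at 1.22 against 2.03, 2.05 against 2.8, 1.26 against 2.27 and 1.54 against 2.3 in KO hippocampus 3, KO hippocampus 6, KO cortex 3 and KO cortex 6. Neuron markers, led by Meg3 or Snap25, were at 0.462 against 0.568, 0.766 against 0.552, 0.571 against 0.0851 and 0.0899 against 0.15 in the same order. Endothelial markers, led by Ly6c1, were at 0.182 against 0.268, 0.399 against 0.237, 0.576 against 0.192 and 0.105 against 0.294. Both were higher in Oligo1 in 2 of 4 libraries. The part of these RNAs in the differences was not tested. The Oligo1 genes C4b and Serpina3n together reached 9.13, 7.04, 4.41 and 4.41 UMIs per 10000 over all cells of KO hippocampus 3, KO hippocampus 6, KO cortex 3 and KO cortex 6, and 0.0743 to 0.282 in the WT libraries. In Oligo2 to Oligo4 cells, used in the third comparison below, they reached 3.26, 2.55, 1.71 and 2.54 in the same order. In WT Oligo2 to Oligo4 cells they were at 0.0743 to 0.262.

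Of the 70 genes of a wider iron list, 63 were analysed and 43 passed the 5% limit. In Oligo1 against other cells 23 of the 43 were higher and 20 lower (53.5% higher, against 52% of all genes tested). The median difference was 0.00335 against 0.00104 over all genes tested. Without a block 0 passed in limma, while DESeq2 called Trf, as given above. With the mouse as a block 5 passed upward and 4 downward in limma, where 12.9% of all genes tested passed. Beside Trf and Ftl1, these were 2 genes of the defence against lipid peroxidation, Gpx4, which reduces lipid peroxides (0.24 ± 0.02, SE, adjusted p = 0.00713 in limma, higher in 4 of 4 libraries), and Gclm, a subunit of the enzyme that starts glutathione synthesis (0.22 ± 0.02, adjusted p = 0.0116 in limma, higher in 4 of 4). In haem breakdown Hmox2, the constitutive haem oxygenase, was lower (-0.17 ± 0.01, adjusted p = 0.00487 in limma, lower in 4 of 4) and Blvra, a biliverdin reductase, higher (0.08, adjusted p = 0.0199 in limma, higher in 4 of 4). The metal carrier Slc39a14 was higher (0.06, adjusted p = 0.0429 in limma, higher in 4 of 4). All 5 of these also passed with each library as a block, a fit on the same mice that counts both tissues of a mouse as separate units. Slc22a17, a receptor for siderophore carriers, was lower (-0.11, adjusted p = 0.0104 in limma, lower in 3 of 4). The haem transporter Slc48a1 was lower as well (-0.10, adjusted p = 0.0189 in limma), with -0.11, -0.09, 0.00 and -0.01 in the 4 libraries. Neither passed with each library as a block, with adjusted p of 0.162 and 0.173 in limma for differences of -0.07 and -0.05. The fit with the mouse as a block pooled both tissues, and hippocampus made up more of Oligo1 than of the other cells. Against Oligo4 alone, Gclm in Oligo1 was lower in 3 of 4 libraries (-0.10 to 0.01) and Hmox2 higher in 3 of 4 (-0.07 to 0.10), so these differences did not hold against every cluster. Ftl1 in Oligo1 was lower than in Oligo4 in 4 of 4 but on a level with Oligo2 (-0.03 to 0.02, below 0 in 2 of 4). By role, 5 of 6 uptake genes, 3 of 5 storage genes, 3 of 3 control genes, 3 of 10 iron-sulfur cluster genes, 5 of 13 haem genes and 4 of 6 genes linked to ferroptosis were higher in Oligo1, and no export gene passed the limit. With each library as a block the counts were 4 of 5 for storage, 2 of 10 for iron-sulfur clusters, 7 of 13 for haem and 3 of 6 for genes linked to ferroptosis, and those for uptake and control were as before.

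**Figure D2:**
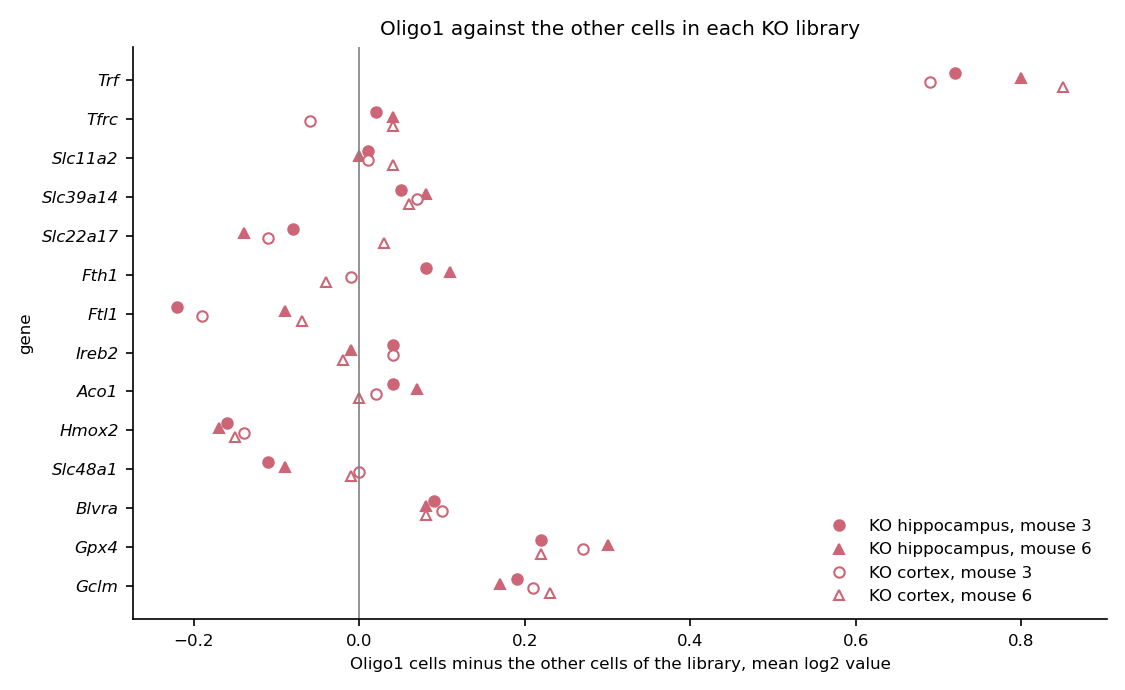
Oligo1 cells minus the other cells of the same library in mean log2 value (horizontal axis) for 14 iron genes (vertical axis), with mouse 3 as circles, mouse 6 as triangles, hippocampus filled and cortex open. Trf stood apart at 0.69 to 0.85, Gpx4 and Gclm lay between 0.17 and 0.30, Hmox2 between -0.17 and -0.14 and Ftl1 between -0.22 and -0.07, while Fth1 and Tfrc lay on both sides of 0.

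The second comparison asked how the genes differ between KO and WT mice, over all cells. Per mouse, the mean of both tissues for Fth1 was 7.53 in mouse 3 and 7.40 in mouse 6 (KO), and 7.18 in mouse 1 and 7.29 in mouse 4 (WT). Both KO mice were above both WT mice. For Trf the values were 5.81 and 5.23 in KO mice 3 and 6, and 5.49 and 4.95 in WT mice 1 and 4, so the groups overlapped. For Ftl1 they were 2.95 and 2.63 in KO mice and 2.99 and 2.59 in WT mice, where the WT mice enclosed the KO mice. Of the 7 genes, Fth1 and Aco1 had both KO mice above both WT mice, as did 1103 of 9257 genes tested (11.9%).

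The KO minus WT difference was 0.23 ± 0.07 for Fth1 (SE, n = 2 mice per genotype), with adjusted p = 1 in limma and both KO mice higher. It was 0.30 ± 0.31 for Trf, 0.00 ± 0.20 for Ftl1, with -0.02 in edgeR and DESeq2, and 0.03 for both Tfrc (-0.03 without mouse 1) and Aco1. Limma called 0 of 9257 genes (0%), with 209 at an unadjusted p under 0.05, while edgeR called 8 and DESeq2 49, and 0 of the 7 genes were called by any of them. An exact permutation test of 2 mice against 2 cannot give a two-sided p under 0.333. A difference as large as that of Fth1 was seen in 30 genes (0.324%) and as large as that of Trf in 11 (0.119%). These ranks favour abundant genes too. The median absolute difference over all genes tested was 0.01 on this scale and 0.07 in edgeR on UMI sums. With mice of the same age as a block, limma again called 0 genes, with 970 at an unadjusted p under 0.05, and Trf had an adjusted p of 0.34 in limma for a difference of 0.30 ± 0.02 (SE), higher in 4 of 4 batches. The Trf difference was 0.57 without mouse 1, 0.59 without mouse 6, 0.03 without mouse 4 and 0.00 without mouse 3, where each omission leaves the mouse pairs unbalanced.

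Within batches, KO was above WT for Trf by 0.37 in batch 3, 0.27 in batch 4, 0.23 in batch 5 and 0.33 in batch 6, and for Fth1 by 0.31, 0.39, 0.06 and 0.17. The Fth1 difference was larger between mice 3 and 1 than between mice 6 and 4, and the Trf difference was of like size in all 4. For Ftl1 it was -0.11, 0.04, 0.05 and 0.04, for Tfrc 0.07, 0.05, 0.01 and -0.01, and for Aco1 0.03, 0.03, 0.02 and 0.03.

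The third comparison left out the Oligo1 cells. Over Oligo2 to Oligo4, Fth1 was at 7.52 in mouse 3 and 7.39 in mouse 6, against 7.18 in mouse 1 and 7.29 in mouse 4, a difference of 0.22 ± 0.07 (SE, n = 2 mice per genotype, adjusted p = 1 in limma, higher in both KO mice). Trf was at 5.65 and 5.09 in KO mice 3 and 6, against 5.49 and 4.95 in WT mice 1 and 4, a difference of 0.15 ± 0.31, and it was 0.42 without mouse 1, 0.43 without mouse 6, -0.12 without mouse 4 and -0.13 without mouse 3. The difference in Fth1 was thus nearly the same with and without Oligo1. Within batches 3, 4, 5 and 6 it was 0.29, 0.39, 0.03 and 0.18 for Fth1, and 0.15, 0.17, 0.04 and 0.23 for Trf. Limma called 0 of 9232 genes (0%), with 133 at an unadjusted p under 0.05 (692 with mice of the same age as a block), edgeR 3 and DESeq2 15. Both KO mice were above both WT mice in 908 genes (9.84%), with Fth1 and Aco1 among them. A difference as large as that of Fth1 was seen in 12 genes (0.13%), again a rank that favours abundant genes.

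**Figure D3:**
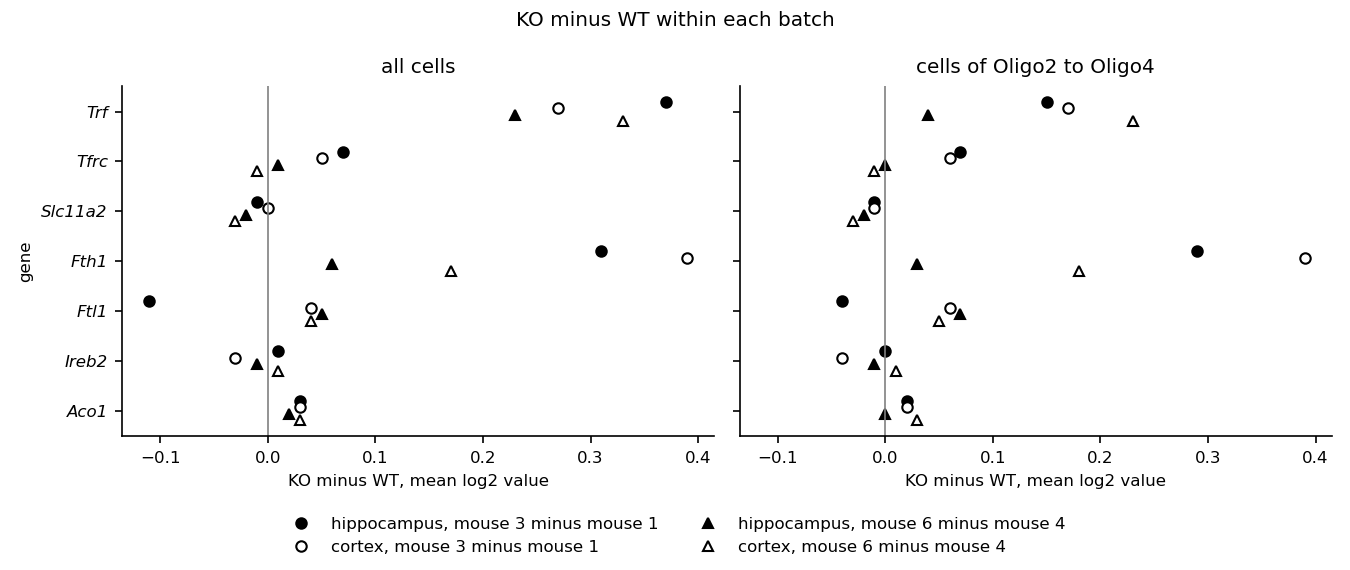
KO minus WT in mean log2 value (horizontal axis) for 7 iron handling genes (vertical axis) in each batch, over all cells (left) and over Oligo2 to Oligo4 (right), with hippocampus filled, cortex open, mouse 3 minus mouse 1 as circles and mouse 6 minus mouse 4 as triangles. Trf and Fth1 were above 0 in all 4 batches in both panels, Trf at 0.23 to 0.37 over all cells and 0.04 to 0.23 without Oligo1, and Fth1 at 0.06 to 0.39 and 0.03 to 0.39.

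Taken 1 cluster at a time, the genotype difference of Trf was 0.12 ± 0.28 in Oligo2, 0.08 ± 0.30 in Oligo3 and 0.44 ± 0.23 in Oligo4 (SE, n = 2 mice per genotype). Oligo4 was thin, with 38 cells in WT cortex 1 and 47 in KO cortex 3. In Oligo4 the level was 5.30, 4.73, 5.39 and 4.90 in KO hippocampus 3, KO hippocampus 6, KO cortex 3 and KO cortex 6, and 4.68, 4.47, 4.95 and 4.46 in WT hippocampus 1, WT hippocampus 4, WT cortex 1 and WT cortex 4, and KO was higher in each batch, by 0.62, 0.43, 0.26 and 0.44 in batches 3, 4, 5 and 6. KO hippocampus 6 and KO cortex 6 were under WT cortex 1, so the libraries overlapped across mouse pairs. Fth1 differed by 0.23 ± 0.07 in Oligo2, 0.20 ± 0.07 in Oligo3 and 0.13 ± 0.06 in Oligo4 (SE, n = 2 mice per genotype). Limma called 0 of 9292 genes in Oligo2, 0 of 9135 in Oligo3 and 0 of 9381 in Oligo4 (0% in each), with 139, 103 and 282 at an unadjusted p under 0.05, and edgeR and DESeq2 were not run on single clusters. Whether the difference itself differed between clusters was not tested.

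Of the 43 genes of the iron list that could be tested, 31 were higher in KO than in WT over all cells (72.1%, against 53.9% of all genes tested), with a median difference of 0.00308 against 0.0013, and 29 over Oligo2 to Oligo4 (67.4% against 52.8%), and limma called 0 of them in either. The largest differences over all cells after Trf and Fth1 were in Gpx4 (0.14 ± 0.14, SE), which was at 3.08 and 2.74 in KO mice 3 and 6 and at 2.83 and 2.70 in WT mice 1 and 4, in Snx3, which returns the transferrin receptor to the cell surface (0.07, at 1.48 and 1.28 in KO mice 3 and 6 and 1.34 and 1.28 in WT mice 1 and 4), and in Blvra (0.05). For Gpx4 and Snx3 mouse 3 was above both WT mice and mouse 6 was not above mouse 1. Of 13 haem genes 11 were higher in KO over all cells, and 7 within Oligo4 (against 49.1% of all genes tested there). Over all cells 4 of 6 uptake, 4 of 5 storage and 2 of 3 control genes were higher. For iron-sulfur clusters it was 6 of 10 and for genes linked to ferroptosis 4 of 6. Over Oligo2 to Oligo4 the largest after Fth1 and Trf were Gpx4 (0.10), Hmox2 (0.07) and Snx3 (0.07), where mouse 6 was not above mouse 4 in Gpx4 (2.69 and 2.69) or Snx3 (1.27 and 1.28). Cpox, an enzyme of haem synthesis, was lower in KO within each cluster, with differences of -0.14, -0.08 and -0.14 in Oligo2, Oligo3 and Oligo4 (each ± 0.07, SE). In Oligo3 the mice overlapped, with KO mouse 6 (1.62) above WT mouse 1 (1.57). Over all cells they overlapped as well, and the Cpox difference was -0.04 ± 0.08 (SE).

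Between tissues, Tfrc was higher in hippocampus than in cortex by 0.08 ± 0.05 (SE, n = 4 libraries per tissue, adjusted p = 0.999 in limma, or 0.241 with the mouse as a block), and higher in the hippocampus of 4 of 4 mice. Fth1 differed by -0.07 ± 0.05. Each batch held libraries of the same tissue, so within a mouse tissue and batch cannot be told apart. Limma called 0 of 9257 genes (0%), with 490 at an unadjusted p under 0.05 and 1450 with the mouse as a block, where it again called 0, and edgeR called 0 and DESeq2 9. Of the 43 iron genes 10 were higher in hippocampus (23.3%, against 35.6% of all genes tested), 1 of 13 haem genes among them, and the largest differences beside those of Tfrc and Fth1 were 0.11 for Gclm, -0.07 for Cpox and -0.07 for Slc22a17. For Gclm mouse 3 decided the value, with 0.35 against 0.03, 0.06 and 0.03 in mice 1, 4 and 6. Over mice 1, 4, 3 and 6 Cpox was at -0.17, 0.07, -0.11 and -0.08 and Slc22a17 at -0.03, 0.01, -0.17 and -0.10, so mouse 4 had the opposite sign in both.

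Hippocampus minus cortex in Fth1 was -0.01 in mouse 1 and -0.02 in mouse 4 (WT), and -0.09 in mouse 3 and -0.14 in mouse 6 (KO). The tissues lay close in WT mice and hippocampus was the lower in both KO mice. The test of this difference between genotypes gave -0.10 ± 0.02 (SE, adjusted p = 0.792 in limma, both KO mice below both WT mice), and limma called 0 of 9257 genes (0%), with 574 at an unadjusted p under 0.05. Without Oligo1 cells, an alternative chosen after seeing the data, it was -0.12, with an adjusted p of 0.887 in limma and the same 2 mice lower.

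Trf and Ftl1 also split between the mouse pairs. Mice 1 and 3 were above mice 4 and 6 by 0.56 in Trf (5.65 against 5.09), a difference that 8 of 9257 genes reached, itself included (0.0864%), and by 0.36 in Ftl1 (2.97 against 2.61), which 48 genes reached (0.519%). As above, these ranks favour abundant genes. In all 14 comparisons of a library and cluster within a genotype and tissue the sign was the same, at 0.20 to 0.60 for Trf and 0.17 to 0.54 for Ftl1. Gpx4 showed the same split (0.24, in 14 of 14), whereas Tfrc (-0.10, below 0 in 12 of 14), Gclm (-0.15, below 0 in 13 of 14) and Cpox (-0.13, below 0 in 13 of 14) had the opposite sign. For Fth1 the pairs split in opposite ways by genotype, with the mean difference at 0.01. Mouse 3 was above mouse 6 in 8 of 8 KO comparisons (7.53 against 7.40 over all cells). Mouse 1 was below mouse 4 in 6 of 6 WT comparisons (7.18 against 7.29). The erythrocyte markers also split by pair in hippocampus, as given above. In cortex they were at 1.98 and 2.16 UMIs per 10000 in mice 1 and 3 and at 2.25 and 0.824 in mice 4 and 6. The split in Ftl1 was seen in both tissues, and the part of erythrocyte RNA in it was not tested.

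**Figure D4:**
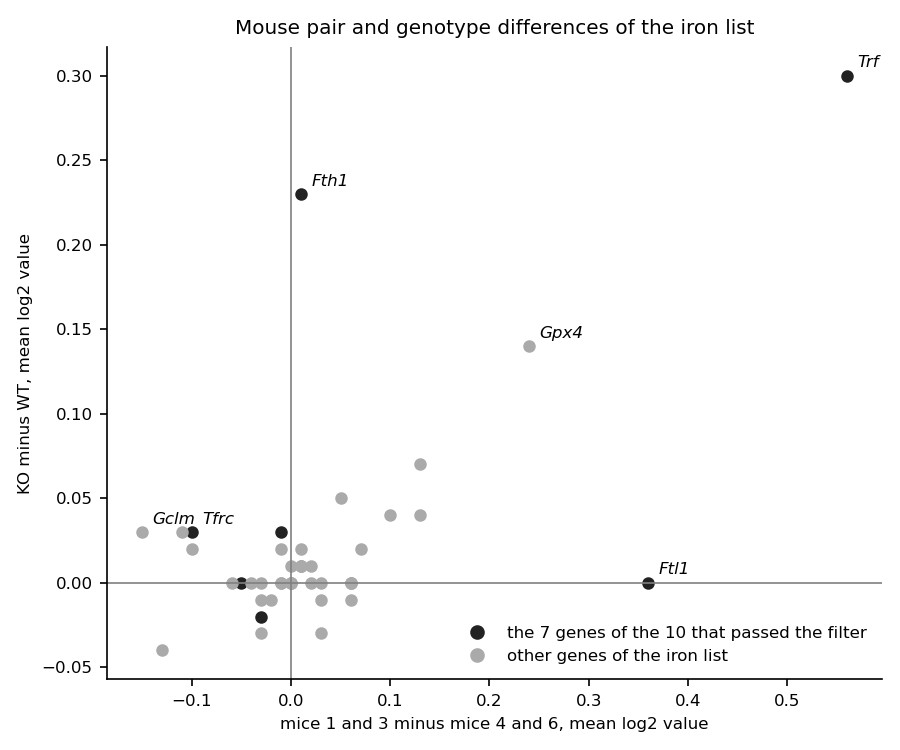
Mean log2 value of mice 1 and 3 minus that of mice 4 and 6 (horizontal axis) against KO minus WT over all cells (vertical axis), 1 point per gene of the iron list that passed the 5% limit (43 genes), with 7 of the iron handling genes dark. Trf was far from 0 on both axes (0.56 and 0.30), Fth1 lay at 0.01 and 0.23, where the 0.01 averages pair differences of opposite sign in KO and WT mice, and Ftl1 lay at 0.36 and 0.00.

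Across the 28 combinations of library and cluster with at least 20 cells, the genes whose mean level was most like that of Trf, among 9184 genes, were Itm2b (Pearson r = 0.937), Ppp1r14a (0.921), Skap2 (0.916), Cltb (0.911) and Sh3bp5 (0.9). For Fth1 they were Mrps6 (0.964), Fam171a1 (0.962), Slco3a1 (0.961), Irs2 (0.955) and Ctnna2 (0.954), and for Ftl1 they were Atp6v0c (0.9), Ctsl (0.893), Cryab (0.865), Rpl28 (0.861) and Atp5j2 (0.859). Fth1 and Trf had r = 0.747, Fth1 and Ftl1 r = -0.147, and Ftl1 and Tfrc r = -0.755. Combinations share libraries, mice and depth, so these values are a description only.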

How the data were processed

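The deposited matrix held log2(UMI / size factor + 1) per gene and cell, made by the authors with Cell Ranger 5.0.0 on mm10 and scran size factors. The deposited metadata gave each cell's UMI counts, size factor, library and cluster. UMIs were taken back from the matrix, and 42420937 of 42420937 values above 0 were whole within 0.001. No doublet step was added to the authors' sorting gates. Genes seen in 5% of cells or more entered limma 3.58.1 (R 4.3.3), fitted on means per mouse (per library between tissues). Benjamini-Hochberg adjustment was over all of them, with a threshold of 0.05. For KO against WT the mouse value was the mean of both tissues. For Oligo1 against other cells it was the mean over the pooled cells of both tissues. UMI sums were tested with edgeR 4.0.16 and DESeq2 1.42.0. Levels needed at least 20 cells, and used Python 3.11.15, numpy 2.4.6, scipy 1.17.1 and matplotlib 3.10.9. Pairs came from the mouse numbers and ages in the labels and were checked on the values: deviations correlated at 0.901 between Oligo1 and other cells of a mouse, 0.843 (WT) and 0.853 (KO) between tissues of a mouse, and 0.742 between mice of the same age, so blocks were tried as alternatives. Others were pseudocounts, filters, centring, single tissues or clusters, thinning to 5000 UMIs and leaving out each mouse. Named were the 10 genes, genes of the wider iron list that passed an adjusted p of 0.05 with or without a block or had 1 of its 5 largest differences, marker genes, and the 5 genes most like Trf, Fth1 and Ftl1. Steap3 and Ftl1-ps1 were named outside this rule. The members and lists were chosen with earlier results of these data known. Hairpins were searched in GENCODE transcripts on GRCm38.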

Additional observations from a re-analysis of the deposited data

Results flagged for a closer look

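Fth1 differed in sign between tissues when Oligo1 cells were set against the other cells of the same KO library. The difference in mean log2 value was 0.08 in hippocampus of mouse 3 and 0.11 in hippocampus of mouse 6, and -0.01 in cortex of mouse 3 and -0.04 in cortex of mouse 6, so both hippocampus libraries lay above 0 and both cortex libraries, with 147 and 98 Oligo1 cells, slightly below it. The share of Oligo1 cells above the median of the other cells was 56.7%, 62.9%, 48.3% (exact 95% interval 40% to 56.7%) and 56.1% (45.7% to 66.1%) in the same order, so in cortex of mouse 6 it lay on the other side from the mean. The difference between tissues was not tested.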

How the results depend on the processing

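Of 536 values under alternatives, 39 counts of called genes and 430 other values kept their direction and side of the threshold, 5 gene differences newly passed it (Trf and Ftl1 in Oligo1, given above), 36 changed sign, 19 counts changed by more than 1.5 times and 7 shares of cells moved with thinning. In Oligo1 against other cells, where limma called 2 genes, the count was 47 with 0.1 as pseudocount, 0 in limma with no filter (1574 at an unadjusted p under 0.05), 119 in edgeR, 277 in DESeq2, 1192 with the mouse as a block, 1312 with each library as a block, 1 from library means, 1 in hippocampus, 0 in limma in cortex (606 at an unadjusted p under 0.05) and 18 against Oligo3 alone. For KO against WT over all cells it was 2 with 0.1 as pseudocount, 1 with no filter, 8 in edgeR and 49 in DESeq2, and over Oligo2 to Oligo4 it was 2, 1, 3 and 15 in the same order. Between tissues DESeq2 called 9, and a fit on Oligo3 cells alone, chosen after seeing the data, changed no call of the listed genes. The cause was not tested, except that single tissues and no filter change how many values or genes enter.

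Signs changed mostly where the difference was near 0, or where 1 mouse was left out of KO against WT. In Oligo1 against other cells, Fth1 was at -0.03 and Tfrc at -0.01 in cortex, Slc11a2 at 0.00 against Oligo3, and Ireb2 between -0.01 and 0.04 with 1 mouse left out. In KO against WT over all cells, Ftl1 was at 0.00 after centring, -0.02 in edgeR, -0.02 in DESeq2, -0.03 in hippocampus and -0.11 in batch 3, Tfrc at -0.01 in batch 6, and Ireb2 at 0.00 in hippocampus and 0.01 in batches 3 and 6. With 1 mouse left out, Ftl1 ran from -0.20 to 0.20, Tfrc from -0.03 to 0.10, Slc11a2 from -0.04 to 0.00 and Ireb2 from -0.03 to 0.02. Over Oligo2 to Oligo4, Ftl1 was at -0.04 in batch 3, Tfrc at -0.01 and Ireb2 at 0.01 in batch 6, and with 1 mouse left out Trf ran from -0.13 to 0.43, Ftl1 from -0.17 to 0.24, Tfrc from -0.04 to 0.09, Slc11a2 from -0.04 to 0.00 and Ireb2 from -0.04 to 0.03. Between tissues Trf was at -0.05 over Oligo2 to Oligo4 and between -0.01 and 0.02 with 1 mouse left out, and Slc11a2 at 0.00 after centring. In KO against WT, leaving out 1 mouse leaves the mouse pairs unbalanced, and the pairs differed by 0.56 in Trf and 0.36 in Ftl1. The cause of the other changes was not tested.

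Where a genotype was left with 1 mouse, that mouse was assumed to vary like the others. Depth limits the sparse genes: thinned to 5000 UMIs, the mean share of cells with a UMI over the 8 libraries was 19.3% for Tfrc, 15.2% for Ireb2, 9.22% for Aco1 and 6.55% for Slc11a2. With 2 mice per genotype, and mouse pair, age and batch joined, the genotype differences rest on 4 animals.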
